A study of Nothobranchius furzeri with 10 samples.

Results

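The 100 genes with the smallest relative spread between libraries were chosen from the skin RNA of male turquoise killifish (Nothobranchius furzeri), an annual fish with a short life that is kept as a laboratory model of ageing. They are 100 of 2897 genes at a mean of at least 50 and under 1000 counts per 1000000 counts of a library (CPM), and of 26739 genes in all. The measure that chose them was the standard deviation (SD) of log2(CPM + 1) over all 10 libraries, so their small spread is a description and was not tested. The fish were of the inbred GRZ strain and 10 weeks old, and all 10 libraries carried the label swim-tunnel, a chamber with flowing water used to exercise fish. They form 1 group, and no unexercised fish were analysed here. Nothing in the labels ties each library to its own animal, and part of the spread may therefore be technical. Replicates are numbered in record order, as names only. The titles carry a number, called the sample code here. Replicates 1 to 5 have the codes 74 to 78, and replicates 6 to 10 the codes 80 to 84.

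Fish skin is made up of a living, mucus-covered epidermis over a dermis that carries scales, pigment cells, vessels and nerves, and RNA from whole skin mixes all of these. A gene can hold a steady level in such a mixture when its RNA is carried at a like level by most of the cell types present, and genes of this kind are commonly sought as references against which other genes are scaled. In bulk RNA of this kind, fewer cells of a type and less RNA per cell cannot be told apart. The gene identifiers in the files are not paired with names, and 0 of 26739 matched the reference gene table, so the members are described by level, length and behaviour, no functions are given, and the tissue label could not be checked against marker genes.

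Column totals averaged 30697867 ± 4734180 counts (SD, n = 10), from 23206247 to 37149070, and no pair of libraries agreed within sampling noise, with a smallest chi-square per degree of freedom of 35.5. Every member had at least 1103 counts in every library. Counting alone would give the members a median SD of 0.027 on the log2 scale, from 0.0085 to 0.037. The members' SD was a median 3.64 times this counting value, and the lowest multiple was 1.98. For the other 2797 genes of the level window the median multiple was 10.5.

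Members differed little between libraries. Their SD of log2(CPM + 1) had a median of 0.098 and ran from 0.053 to 0.11, beside a median of 0.28 for the other genes of the window. The CPM of the median member differed 1.24-fold between its highest and lowest library, and that of the member with the widest range 1.34-fold. Of all genes of the window, 1094 of 2897 (37.8%) differed by more than 2-fold. The limit of the choice fell within a continuous distribution. The gene of rank 100 had an SD of 0.1098 and a mean of 922 CPM, and the gene of rank 101, just outside, had an SD of 0.1101 and a mean of 323 CPM. By level, members ran from 50.9 to 970.4 CPM, and genes with an SD as small as theirs also lay just outside the window, at 49.6 and at 1008 CPM.

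**Figure D1:**
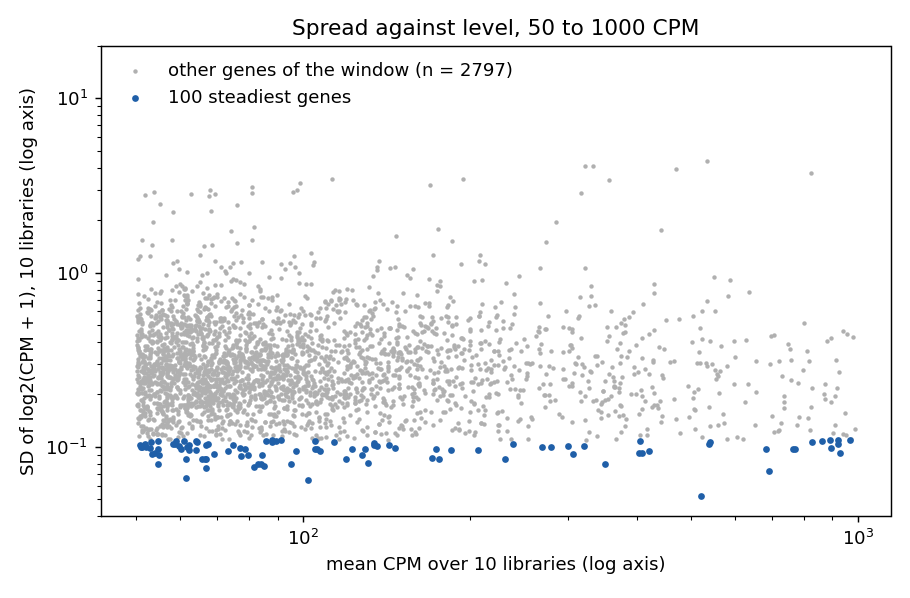
Each point is a gene of the 50 to 1000 CPM window, with its mean CPM (log axis) against its SD of log2(CPM + 1) over 10 libraries (log axis). The 100 members, in blue, lie at an SD of 0.053 to 0.11, under the 2797 other genes in grey, and span the whole range of levels.

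The member with the smallest SD was Nfu_g_1_011421. Its level was 494 CPM in the lowest library (replicate 9), 523 CPM at the median and 560 CPM in the highest (replicate 4), with a mean of 521 ± 19.2 CPM (SD, n = 10). The 10 values formed a single run, and the levels under the 2 sets of sample codes overlapped, with means of log2(CPM + 1) of 9.04 in codes 74 to 78 and 9.02 in codes 80 to 84. The gene is 639 bases long by the length implied in the deposited values, and its level per length was 815 ± 30.0 in RPKM (reads per kilobase and 1000000 counts, SD, n = 10, with each value restored to its own library's total). Its SD of 0.053 was 0.040 without replicate 4.

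The next member by SD, Nfu_g_1_014181, stood at 95.2 CPM in the lowest library (replicate 3), 102 CPM at the median and 110 CPM in the highest (replicate 4), with a mean of 102 ± 4.64 CPM (SD, n = 10). Its spread was unequal between the runs of sample codes, with an SD of 0.093 in codes 74 to 78 and 0.027 in codes 80 to 84. This gene is also short, at 570 bases. At the top of the level range, Nfu_g_1_011983 ran from 865 CPM (replicate 9) through a median of 984 CPM to 1133 CPM (replicate 4), with a mean of 970.4 ± 75.2 CPM (SD, n = 10) and a length of 856 bases. Its levels in codes 74 to 78 overlapped those in codes 80 to 84 in 1 library only, replicate 7 at 986 CPM, and its SD was 0.080 without replicate 4 against 0.11 with it. At the bottom of the range, Nfu_g_1_015578 ran from 45.5 CPM (replicate 1) through a median of 51.6 CPM to 58.2 CPM (replicate 8), with a mean of 50.9 ± 3.70 CPM (SD, n = 10). This member is 5087 bases long, and it was highest in another library than the 3 members before it.

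The same choice made without a library gave genes that were also close to their own mean in that library. For each library in turn, the window and the 100 genes of smallest SD were taken from the other 9, and the level in the left-out library was then read. The absolute deviation of these genes from their mean in the 9 had a median between 0.080 log2 units (replicate 5) and 0.15 (replicate 10). For all genes of the same window it lay between 0.16 (replicate 5) and 0.34 (replicate 1), and it was the larger of the pair in each of the 10 libraries. No chosen gene was more than 2-fold off in the library left out, 0 of 100 each time, where between 1.68% and 7.17% of the window was. From 72 to 99 of the 100 deviated less than the median gene of the window. The deviations leaned to one side in some libraries. The median signed deviation of the chosen genes was 0.13 in replicate 4, 0.12 in replicate 7 and -0.14 in replicate 10.

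**Figure D2:**
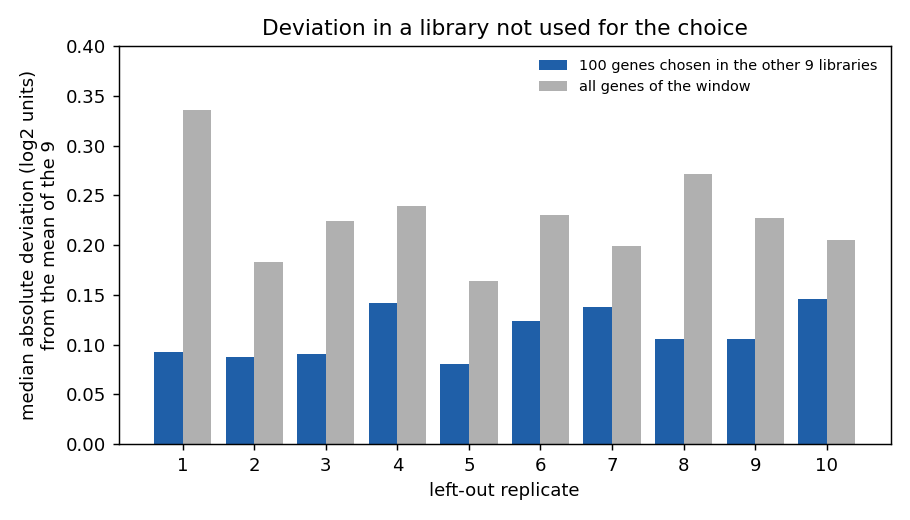
Bars give the median absolute deviation of log2(CPM + 1) in a left-out library from the mean of the other 9, for 100 genes chosen in those 9 (blue) and for all genes of the window (grey). The blue bar is the lower one in all 10 libraries, at 0.080 to 0.15 against 0.16 to 0.34.

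Genes chosen within 1 run of sample codes had a smaller median SD in the other run than the window. Their SD was larger there than where they were chosen, which a choice of the smallest values brings by itself. The 100 genes of smallest SD in codes 74 to 78 had a median SD of 0.051 there and of 0.13 in codes 80 to 84, where the window's median was 0.19. Their median lay at the 22.2nd percentile of the window. Chosen in codes 80 to 84, the genes had a median SD of 0.057 there and of 0.11 in codes 74 to 78, at the 19.5th percentile of the window, which had a median of 0.18. In all, 8 genes were chosen in both runs, and 3 of these were members. Of the members, 28 were among the 100 of codes 74 to 78 and 20 among the 100 of codes 80 to 84. The libraries of both runs also took part in choosing the members. With each library left out in turn, between 75 and 85 of the 100 members were chosen again, and 55 were chosen every time.

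By column totals, a small spread was most frequent among abundant genes, and this did not hold under TMM or DESeq2's size factors. An SD at or under that of the member of rank 100 was found in 52 of 1748 genes at 50 to 100 CPM (2.97%), 20 of 708 at 100 to 200 CPM (2.82%), 13 of 326 at 200 to 500 CPM (3.99%) and 15 of 115 at 500 to 1000 CPM (13.0%). Outside the window it was found in 23 of 126 genes at 1000 CPM or more (18.3%) and in 151 of 7114 at 10 to 50 CPM (2.12%). The median SD of all genes was 0.28 at 50 to 100 CPM and 0.21 at 500 to 1000 CPM, and counting alone would give 0.033 and 0.010. Chosen under edgeR's TMM scaling, described further on, the 100 steadiest genes held 3 of the 115 genes at 500 to 1000 CPM (2.61%) and 61 of the 1748 at 50 to 100 CPM (3.49%). With DESeq2's size factors the counts were also 3 and 61. With ratios between genes they were 5 (4.35%) and 56 (3.20%). By ratios the share at 500 to 1000 CPM was still the highest, next to 4.10% at 100 to 200 CPM.

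The median member was shorter than the median of the other genes of the window by column totals, and the direction turned under other scalings. Gene length was not used in the choice. It was taken from the counts, RPKM and totals and came within 0.1 of a whole number for 89 of the 100. The members' median was 3184 bases, from 351 to 18087, and that of the other genes 4039. The 84 members outside the largest block, described further on, had a median of 3959 bases, so most of this gap lay with that block. Chosen under TMM, the 100 steadiest genes had a median of 4774 bases beside 3990 for the other genes. With DESeq2's size factors the medians were 4480 and 4001, and with ratios between genes 4398 and 4002. By column totals, the window was divided by length into 4 classes of about equal size. In the shortest class, up to 2222 bases, 37 of 725 genes were members (5.10%). In the other classes, from short to long, the shares were 2.62%, 3.45% and 2.62%. The short members were also the more abundant ones, with a median of 131 CPM in the shortest class and of 62.3 CPM in the longest. Across members, Pearson's r between log2 length and log2 mean CPM was -0.35 (n = 100 genes, which are not independent replicates), and across the other genes of the window it was -0.096. The separate parts of length and level in the choice were not tested.

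Per length, the levels of members and of the other window genes covered a wider range than CPM. The choice limited CPM and not RPKM. The members' restored RPKM had a median of 35.8 and ran from 5.87 to 2538, where their CPM ran from 50.9 to 970.4. The other genes had a median of 23.3 RPKM, from 2.71 to 4754, where their CPM ran from 50.1 to 987. Median CPM was 93.1 for members and 84.8 for the other genes. RPKM is taken per length, and the shorter median length of the chosen genes turned under other scalings.

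Small as they were, the members' deviations were shared in part. Replicate 4 was the highest library of 28 members and the lowest of 0, and 84 of the 100 lay above their own mean there. Replicate 10 was the lowest library of 24 members and the highest of 4, and 23 of 100 lay above their mean. These counts are not set beside like counts for the other window genes, so they mark no trait of the members. The mean deviation over members was 0.076 log2 units in replicate 4 and -0.059 in replicate 10, and from -0.028 to 0.038 in the other 8 libraries. The median deviation of the other window genes was 0.030 in replicate 4 and -0.044 in replicate 10, and its extremes lay elsewhere, at 0.091 in replicate 7 and -0.074 in replicate 2. The medians of members and of the other genes had the same sign in 7 of 10 libraries, and opposite signs in replicates 1, 8 and 9. These values are by column totals, and the low in replicate 10 depended on that scaling. Under TMM the members' mean deviation was highest in replicate 4 (0.089), 0.013 in replicate 10 and lowest in replicate 9 (-0.12). With DESeq2's size factors it was 0.099, 0.0085 and -0.13 in these libraries. Together the members took 2.21% ± 0.0872 of the counts of a library (SD, n = 10). The lowest share was 2.10% in replicate 9, with an exact binomial interval at 95% of 2.090% to 2.101%. The highest was 2.41% in replicate 4, with an interval of 2.407% to 2.418%. The intervals hold no more than counting error.

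**Figure D3:**
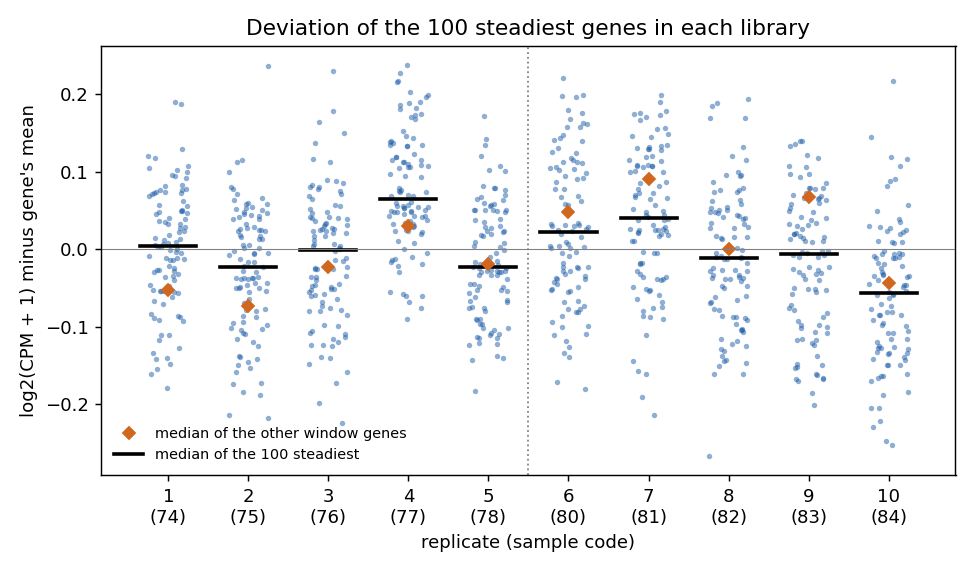
Points are the 100 members in each library, as log2(CPM + 1) minus the gene's mean over 10 libraries, with the members' median as a bar and the median of the other window genes as a diamond. The members' median is highest in replicate 4 (0.064) and lowest in replicate 10 (-0.057), and the dotted line marks the gap in the sample codes.

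The largest set of members that moved together consisted for the most part of abundant and short genes. Grouping the members by the correlation of their log2(CPM + 1) over libraries (average linkage, divided at 1 minus r of 0.4) gave 8 blocks of at least 4 genes, with 59 members in all. The first block held 16 members, including Nfu_g_1_011983 and 12 of the 15 members at 500 CPM or more. Its members had a median of 800 CPM, from 61.1 to 970.4 CPM, and a median length of 899 bases, from 351 to 10405. Of the 16, 12 were under 2000 bases and 2 were under the members' median level of 93.1 CPM. As a share of counts the block made up 0.960% in replicate 9, its lowest library, 1.07% at the median and 1.22% in replicate 4, its highest, with a mean of 1.07% ± 0.0723 (SD, n = 10). In mean deviation it stood at 0.18 log2 units in replicate 4 and between 0.022 and 0.053 in the other libraries of codes 74 to 78. In codes 80 to 84 it stood at 0.038 in replicate 7 and between -0.14 and -0.049 in the other 4. By column totals the 2 runs of codes thus overlapped through replicate 7 alone. Under TMM the runs did not overlap. The block's mean deviation was then 0.069 to 0.195 in codes 74 to 78 and -0.24 to 0.024 in codes 80 to 84. The mean pairwise r in the block was 0.81 (n = 10 libraries, all scaled by their own totals), 0.72 without replicate 4, and 0.69 both within codes 74 to 78 and within codes 80 to 84. The block was formed on the r of these same libraries, so the values describe the grouping and test nothing. The block held 14 to 22 genes with each library left out, 14 of them without replicate 4.

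Among the other genes, the mean of this block was tracked at r over 0.9 by 45 of the 126 genes at 1000 CPM or more (35.7%), which had a median length of 1050 bases, by 20 of 2881 genes at 50 to 1000 CPM (0.694%) and by 8 of 7114 at 10 to 50 CPM (0.112%). Counting noise differs between these levels, with a median counting SD of 0.059 at 10 to 50 CPM and 0.0067 at 1000 CPM or more. Its part in the shares was not tested. The 45 became 31 without replicate 4, and 41 to 52 without another library. No gene at that level tracked blocks 2 to 6 or block 8, and 1 of 126 tracked block 7. The second block, of 10 members with a median of 64.9 CPM and 4875 bases, was highest in replicate 7 (0.13) and lowest in replicate 10 (-0.13). In replicate 6 it stood at 0.10, where the first block stood at -0.068. Over all pairs of members the median r was 0.16, beside 0.024 for pairs of the other window genes. Under TMM these medians were 0.33 and 0.017. The members were chosen as flat by column totals, so the TMM factors add 1 shared pattern to all of them. Nothing is read from the higher median under TMM. Both tails by column totals were thinner among members. An r over 0.8 was found in 2.26% of members' pairs and 7.22% of the others. An r under -0.8 was found in 0.18% and 4.14%. Members were chosen by a small SD, which leaves counting noise a larger part of their spread. This choice also keeps differences between the runs of sample codes small, so nothing is read from the thinner tails.

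**Figure D4:**
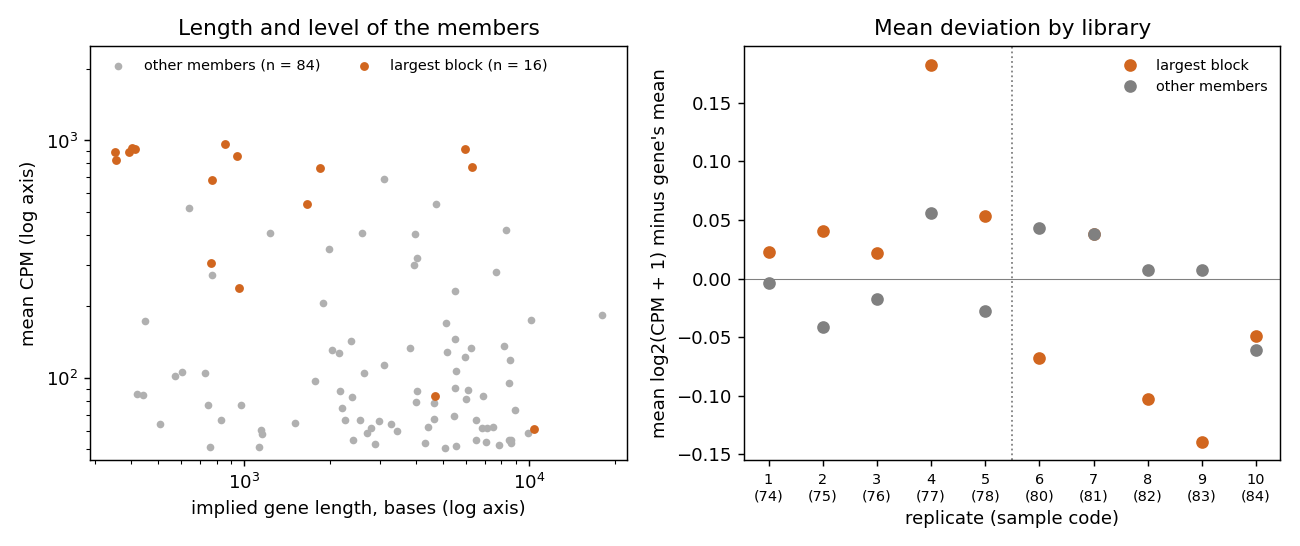
At left, each member's implied length (bases, log axis) is set against its mean CPM (log axis), with the 16 members of the largest block in orange. At right, the mean deviation of log2(CPM + 1) by library shows that block at 0.18 in replicate 4 and -0.14 in replicate 9, while the 84 other members lie between -0.061 and 0.056.

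Which genes were steadiest depended on how libraries were scaled. With edgeR's trimmed mean of M values (TMM), whose factors ran from 0.957 to 0.991 in codes 74 to 78 and from 0.951 to 1.07 in codes 80 to 84, the 100 genes of smallest SD shared 48 with the members. With DESeq2's size factors they shared 46. The 2 scalings shared 96 with each other. Under TMM the members' median SD was 0.11, against 0.098, and 55 of 100 kept an SD within the members' own limit. None of the 16 genes of the first block was among the 100 under TMM (0 of 16), and their median SD was 0.15 there. Nfu_g_1_011421 had an SD of 0.097 under TMM and ranked 77, Nfu_g_1_014181 had 0.086 and ranked 44, Nfu_g_1_011983 had 0.15 and ranked 390, and Nfu_g_1_015578 had 0.080 and ranked 28.

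A measure that needs no scaling is the SD of the log2 ratio of a gene to each other gene of the window. By its mean, 60 members were among the 100 steadiest genes. Members that were among the 100 by column totals, TMM, DESeq2 size factors and ratios numbered 40, and 29 of these were also chosen with each library left out. The 40 had a median of 85.0 CPM, from 52.0 to 691 CPM, and a median length of 4542 bases, where the window genes that are no members had 4039. They included Nfu_g_1_011421 and Nfu_g_1_014181.

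**Figure D5:**
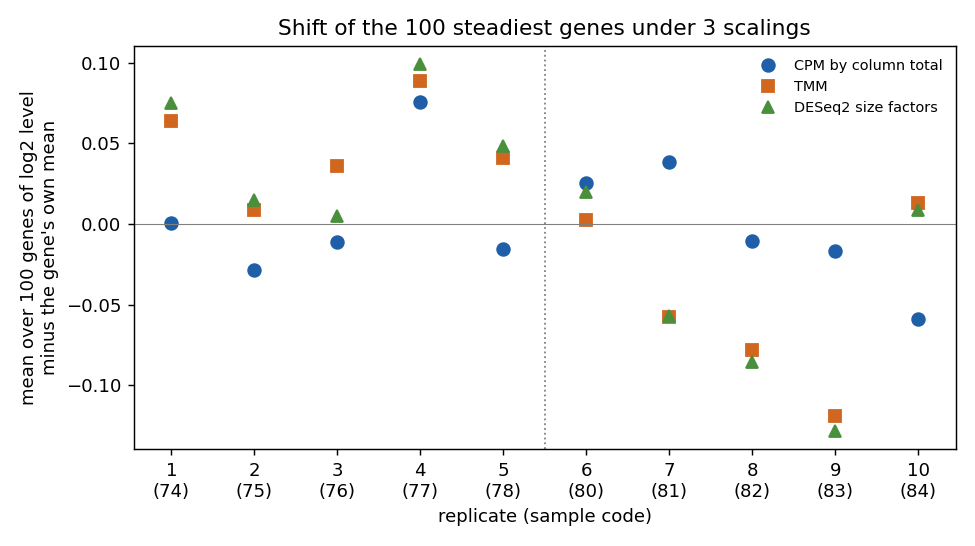
Points give the mean over the 100 members of the log2 level minus the gene's own mean, by library, under 3 scalings. By column totals the 10 libraries lie between -0.059 and 0.076, and under TMM replicates 7 to 9 lie at -0.057, -0.078 and -0.12 while codes 74 to 78 lie at or above 0.0086.

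Between the runs of sample codes, 2 of the 100 members had levels that did not overlap, both higher in codes 80 to 84. In the window 29.7% of genes did not overlap in either direction and 18.9% in this direction, and among genes at 1 CPM or more 28.4% did not overlap. The rule kept differences between the runs small, so nothing is read from the lower share of members. The first of the pair, named after its values were seen, was Nfu_g_1_012391, at 61.3 to 64.4 CPM in codes 74 to 78 and 66.9 to 73.7 CPM in codes 80 to 84. The other was Nfu_g_1_010436, at 186 to 203 CPM and 205 to 227 CPM. The count was 6, 4, 7, 6, 2, 5, 14, 4, 3 and 6 without replicates 1 to 10 in turn, where fewer libraries part more easily. In the window the share in either direction was then 31.0%, 33.5%, 32.7%, 31.3%, 33.1%, 32.0%, 35.8%, 31.2%, 30.2% and 35.9%.

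With TMM the direction turned. The count was then 11 of 100, all higher in codes 74 to 78, where 15.6% of the window was higher in this direction, 32.2% of it did not overlap in either, and 29.6% of genes at 1 CPM or more did not. Of the 11, 8 belonged to the first block. With DESeq2's size factors 10 members did not overlap, beside 32.1% of the window, and with RPKM as deposited 0 did, beside 8.01%. By column totals 45 of 100 members had the higher mean of log2(CPM + 1) in codes 80 to 84 and the median difference, codes 80 to 84 minus 74 to 78, was -0.018. Under TMM 16 of 100 did and the median difference was -0.10. TMM moved this difference by -0.086 for the median gene of the window. For the other genes of the window the median difference was 0.014 by column totals and -0.072 under TMM. The 45 and the 16 are not set beside a share of the window, and nothing is read from them.

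In the RPKM table as deposited the members were not steady, and the other genes of the window also spread more there. Each cell of that table had been divided by a total that was mostly another library's. For Nfu_g_1_011421 they ran from 507 in replicate 2 to 1262 in replicate 8, a 2.49-fold range, where the restored values ran from 773 in replicate 9 to 877 in replicate 4. The SD of log2(RPKM + 0.1) had a median over members of 0.35 in that table and of 0.098 after restoring, and it was larger before restoring for 100 of 100. For the other genes of the window the median SD was 0.44 as deposited and 0.28 after restoring. The members' median thus stayed under that of the window in both. As deposited, 54 members differed by more than 2-fold between libraries. That count is not set beside the window here, and nothing particular to the members is read from it. The 100 steadiest genes of the window by RPKM as deposited held 22 of the members, and by restored RPKM 98. Restored RPKM is CPM over a fixed length for each gene. The 98 and the restored SD therefore repeat the choice by CPM and are no separate measure.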

How the data were processed

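The 10 skin libraries of 1 group were prepared with a TruSeq kit, per the labels' protocols. The submitters' processing notes name featureCounts 1.4.6-p4, STAR 2.4.1d and bcl2fastq 1.8.4. Which genome build and annotation were used is not given in the sources used here. Per gene, the authors deposited raw counts and RPKM for 26739 genes, and columns were matched to libraries by title. The RPKM values deposited by the authors were checked on the members: with totals cycled down the rows and on through the columns, the implied length varied by at most 0.00558% between libraries, and with each library's own total by a median of 23.7%. They were restored to the own totals.

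CPM was the count over the column total. The SD was taken over libraries of log2(CPM + 1), and of log2(RPKM + 0.1) for RPKM. TMM factors came from edgeR 4.0.16 on 16829 genes kept by its filter, and size factors from DESeq2 1.42.0 (R 4.3.3). Other steps used Python 3.11.15, numpy 2.4.6, pandas 2.3.3, scipy 1.17.1 and matplotlib 3.10.9. Steps were tested on simulated data. Counting error was taken as Poisson, and the interval of a share as exact binomial (Clopper-Pearson) at 95%.

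No comparison was tested, since the choice used all 10 libraries and there is 1 group. Dixon's limit was used only to point out libraries that stand apart. Members, lists and comparisons were chosen with earlier results of these data known. Named by rule were the 2 members of smallest SD and those of highest and lowest mean CPM. Skin markers and a list of common reference genes were not analysed here, as no identifier has a name. The data had been seen when the blocks, the genes tracking them and their alternatives were chosen, and likewise leaving out libraries for the runs of codes. Leaving out each library, other scalings, pseudocounts, measures and level limits were alternatives.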

Additional observations from a re-analysis of the deposited data

Results flagged for a closer look

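Of 15 library-level measures on the members, 1 passed Dixon's 95% limit of 0.466 for 10 values, which chance passes in about 1 of 20 sets. All 15 come from the values that chose the members, and the blocks were formed on them too, so passing the limit describes a library and is no test. The members' share of all counts was highest in replicate 4, at 2.41%, and its gap to the next library was 0.508 of the whole range. The same library gave the first block its highest share, 1.22%, with a gap in mean deviation of 0.402 of the range, under the limit. The part of a difference in the animal, the tissue piece or the library was not tested.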

How the results depend on the processing

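No paired analysis was possible because only 1 group was analysed and nothing pairs its libraries. The 100 members shared 48 with the choice by TMM, 46 by DESeq2 size factors, 60 by gene ratios, 43 by median absolute deviation and 22 by RPKM as deposited. They shared 28 and 20 with the choice in codes 74 to 78 and 80 to 84 alone, and 36 with a mean from 10 CPM, where more genes compete. With no filter beyond 1 count in every library they shared 1. That choice admits genes under 1 CPM, where the 1 added to CPM keeps the SD of the log2 small. Nothing about steadier genes is read from it. The median SD of 0.098 was 0.35 with RPKM as deposited and 0.078 in codes 74 to 78 alone. The largest SD among the 100, 0.110, was 0.239 with RPKM as deposited, 0.0653 and 0.0690 in the single runs, 0.307 by median absolute deviation, 0.137 by gene ratios, 0.0948 from 10 CPM and 0.0616 with no filter. The 2 members that did not overlap between runs were 11 with TMM, 10 with DESeq2 size factors and 0 with RPKM as deposited, where 32.2%, 32.1% and 8.01% of the window did not overlap, and from 2 to 14 with a library left out (30.2% to 35.9% of the window). The median length of the 100 minus that of the other genes was -855 bases, and turned to 784 with TMM, 479 with DESeq2 size factors and 395 with gene ratios. The 15 genes at 500 to 1000 CPM became 3, 3 and 5. The first block of 16 became 28 with TMM, and the 45 abundant genes that tracked it from 31 to 52 with a library left out and 31 in codes 80 to 84 alone. The causes were not tested. Of 68 values of the SD of the named members, 49 moved by less than 0.0111, the SD of the measure over members. Depth limits the least abundant members most, by a counting SD of up to 0.037.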
